A study of Saccharomyces cerevisiae with 8 samples.

Results

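The genes described here are those annotated as proteins of the yeast mitochondrial ribosome. They were the rows of the gene count table whose description holds the words "mitochondrial ribosomal protein" and whose identifier is that of a nuclear gene, 77 of 7126 genes. The descriptions place 29 of them in the small subunit and 42 in the large subunit. The other 6 (MNP1, RTC6, YMR31, PPE1, MMF1 and MRP8) carry the words without a subunit. MNP1 and RTC6 are relatives of bacterial ribosomal proteins, while YMR31, PPE1 and MMF1 are known for other roles. NAM9 and MRPS12 also code for proteins of the small subunit, but their descriptions lack the words and they are not among the 77.

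The libraries came from 8 cultures of Saccharomyces cerevisiae, 2 for each combination of strain and medium. CRN (MATa ade2 his3 ura3) lacks PPN1, a gene of an enzyme that breaks down inorganic polyphosphate, through replacement by CgTRP1. CRN/PPN1 is the same strain carrying the plasmid pMB1/PPN1 Sc, so both strains share the chromosomal deletion and the auxotrophic alleles, and CRN without a plasmid was the reference. According to the study, CRN/PPN1 overproduces the Ppn1 enzyme and has a lower polyphosphate level than CRN. The control medium was YPD, a rich glucose medium, and the manganese medium was YPD with 5 mM MnSO4. Both held 14 mM KH2PO4 and cultures grew at 29 °C. Control cultures were grown for 12 h in both strains, manganese cultures for 40 h in CRN and for 16 h in CRN/PPN1, so that growth time cannot be told apart from strain and medium wherever manganese cultures are compared. According to the methods of the study the replicates of a group are separate cultivations run at the same time. The p-values therefore rest on spread between parallel cultures, estimated over all 4 groups together and moderated across genes.

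The mitochondrial ribosome translates the few mRNAs of the mitochondrial genome, most of which encode core subunits of the respiratory chain and of the ATP synthase. In yeast its RNAs and a single protein, Var1, are made in the mitochondrion, and all other proteins are encoded in the nucleus, made in the cytosol and imported. In glucose-grown cells many of the mRNAs of these nuclear genes are bound after the stop codon by Puf3, an RNA-binding protein that promotes their decay, and in the absence of glucose Puf3 is known to act in their translation.

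The letters that Puf3 recognises are shown first because nearly all of the genes share them. TGTANATA (N is any base) was searched on the coding strand in the 200 bases after each stop codon. It was found in 72 of the 77 genes (93.5%) and in 843 of 5993 coding genes (14.1%). Of the genes outside the 77, 771 of 5916 (13.0%) held it. In the small subunit 28 of 29 genes and in the large subunit 42 of 42 had a match, against 2 of the 6 without a subunit. The 5 genes without a match were RSM22, YMR31, PPE1, MMF1 and MRP8. A match describes letters and was not measured as a bound site. The bases around the first match after the stop codon are printed below 5′ to 3′ in the R64 build (sacCer3, NCBI RefSeq), 30 bases for each gene with the recognition letters in capitals, for the genes that the results turn on.
MRPL39, chrXIII:251207-251236, minus strand: ttcatttatccTGTAAATAagtaatggata
MRPL37, chrII:741638-741667, plus strand: tttggtatcctTGTAAATAaatatgtgtgt
MRPS8, chrXIII:572761-572790, plus strand: tatacggaccaTGTAAATAataatattata
MRP2, chrXVI:876214-876243, minus strand: ggatacgcactTGTAAATAaatacatgata
MRPL49, chrX:246977-247006, plus strand: ttttagggataTGTACATAtacgcatacgt
MRPL51, chrXVI:730250-730279, plus strand: ataattatactTGTATATAtaatttggggc
IMG1, chrIII:209863-209892, minus strand: cacccatctccTGTATATAagaaaaatagt
MRP20, chrIV:1278499-1278528, plus strand: cccctcacactTGTATATAcggagcaaact
MRPL4, chrXII:1015467-1015496, plus strand: accctctctccTGTAAATAtatatatatat
The first 6 were each among the 3 genes that changed most in a comparison. The last 3 are genes of the large subunit that were called in no comparison, and their letters match as well.

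The first match began between 8 and 139 bases after the stop codon, with a median of 51.5. The base left free in the search was A in 35 genes, T in 23, C in 13 and G in 1. A C stood 2 bases before the match in 52 of the 72 genes (72.2%), as in MRPL39, MRPL37 and MRPL4 above, and in 24.8% of the matches of other genes. More than 1 match was found in 13 genes, and RSM19 had 3. On the other strand of the same window 15 of the 77 (19.5%) had a match, against 13.2% of all coding genes. The letters of 4 promoter elements were searched on both strands from 250 bases before to 50 after the start codon. AATTTT was found in 44.2% of the 77 and 51.7% of all coding genes, and AAAATTTT, which contains it, in 7.79% and 9.03%. CCAAT, the letters read by the Hap complex, was found in 42.9% and 43.3%, and GATGAG in 15.6% and 20.4%.

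**Figure D1:**
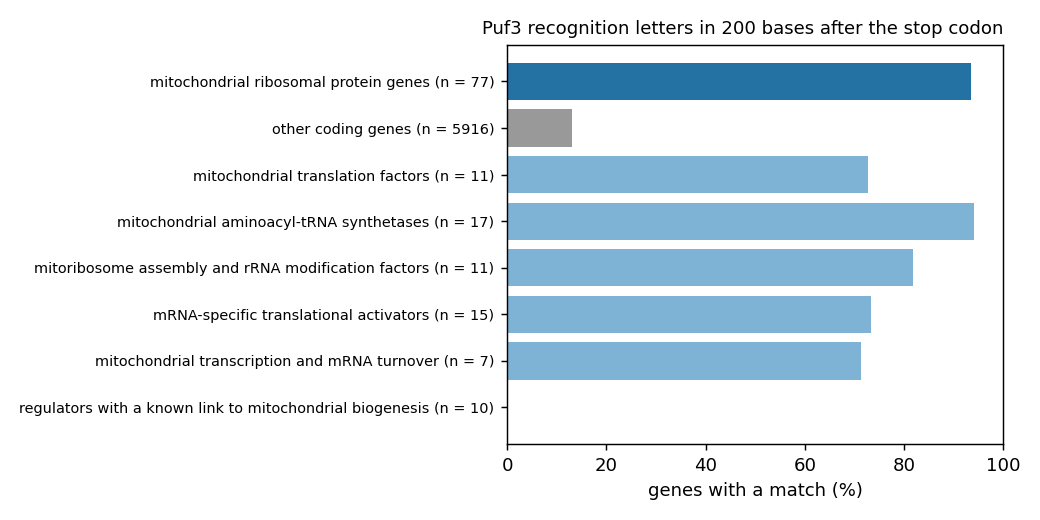
Share of genes, in percent, with the Puf3 recognition letters within 200 bases after the stop codon, for the 77 genes, for other coding genes and for 6 lists of genes around mitochondrial gene expression; n is the number of genes. The bar of the 77 genes reaches 93.5% and that of other coding genes 13.0%. The list of aminoacyl-tRNA synthetases also holds HER2, PET112 and GTF1, subunits of a tRNA amidotransferase.

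The genes lie on 15 of the 16 chromosomes, and YDR115W and MRPL1 are the only neighbouring pair. YML6 and MRPL44 have 2 coding exons each. YDR115W, MRP4 and MRPL51 overlap a gene on the other strand, which strand-specific counts tell apart, and MRPL19 overlaps YNL184C on its own strand. Coding lengths ran from 213 bases in MRPL39 to 1887 in RSM22 with a median of 660, against 1242 over the tested genes. The large subunit's median was 616.5 and the small subunit's 795. Length is given beside the results because levels and differences moved with it in all genes.

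The libraries held 3252550 to 4914932 reads, of which 88.9% to 92.3% mapped to a single place, and 2309776 to 3579469 gene counts. The genes in the shortest quintile of coding length (1 of 5 bins of equal size) took 71.6% and 78.1% of counts in control CRN, 16.4% and 18.7% in manganese-grown CRN, 64.7% and 66.5% in control CRN/PPN1 and 33.7% and 34.7% in manganese-grown CRN/PPN1. The scaling factors (TMM) that bring the libraries to a common level ran from 0.508 to 1.63. The 127 genes of cytosolic ribosomal proteins, which are also short, had a median log2 fold change of -4.34 with manganese in CRN. A difference in the makeup of the cultures and a difference in RNA per cell cannot be told apart in such samples. Whether the shift between short and long genes came from the cells or from the handling of RNA and the library preparation was not tested.

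All 77 genes passed the filter on low values (at least 2 CPM, the counts scaled to library size, in at least 4 libraries), and the lowest count of any of them in a library was 41. Levels below are CPM after TMM scaling, in the order of the 2 libraries, and values in parentheses are log2 fold changes with their standard errors (SE). A gene was called where the adjusted p was at most 0.05 and the log2 fold change at least 1 in size. In control CRN the 77 genes took 1.57% and 1.70% of all gene counts. In control CRN/PPN1 they took 1.09% and 1.12%, in manganese-grown CRN/PPN1 0.644% and 0.693%, and in manganese-grown CRN 0.542% and 0.603%. No library of one group crossed into another group.

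**Figure D2:**
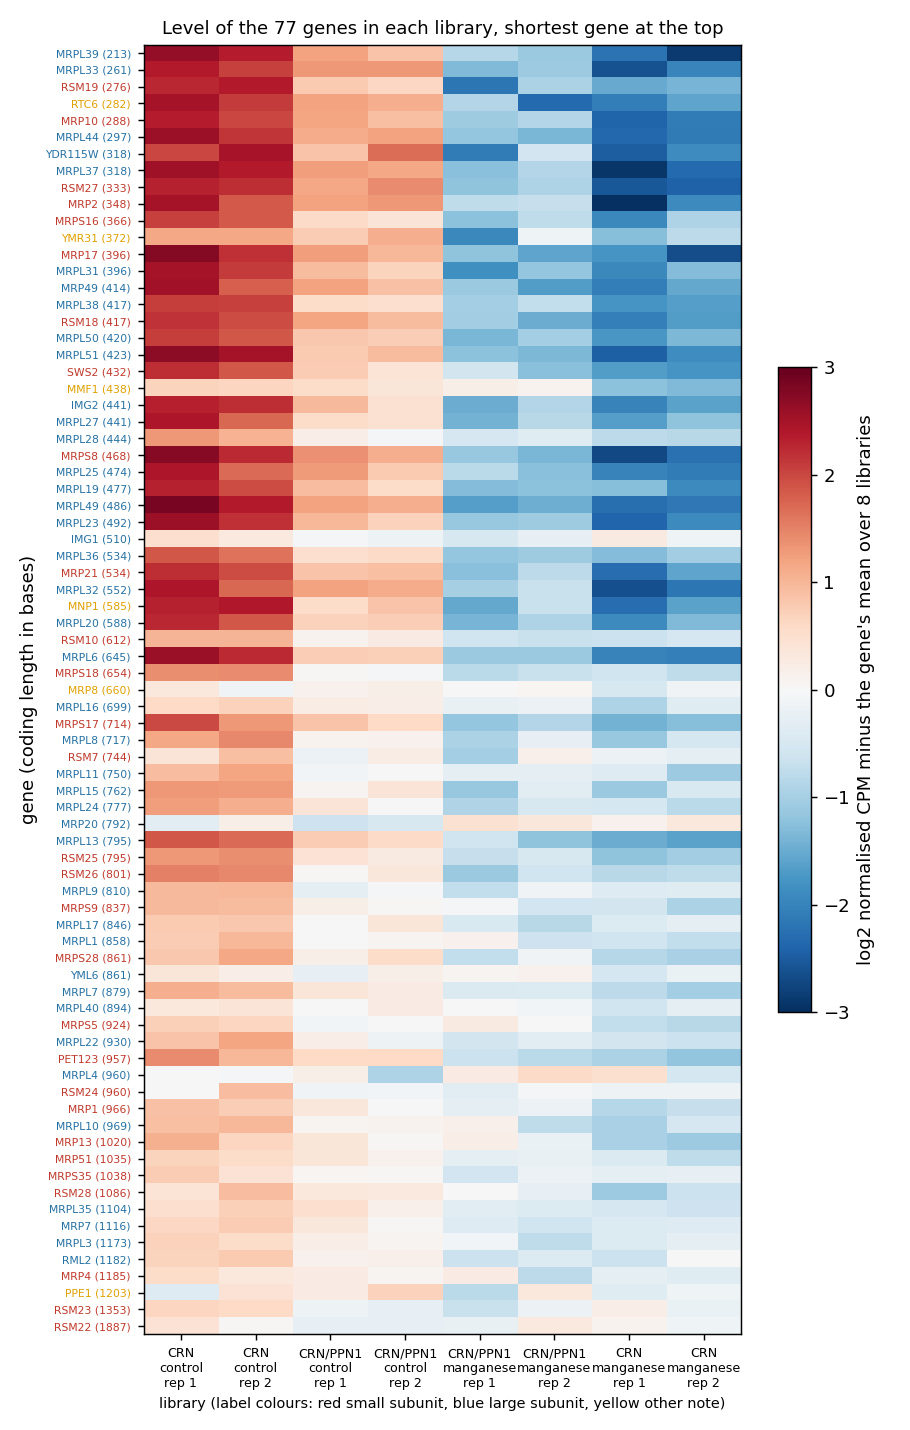
Log2 normalised CPM of each of the 77 genes in each library, minus the mean of the gene over the 8 libraries, with genes ordered from the shortest (MRPL39, 213 bases) to the longest (RSM22, 1887 bases). CRN control libraries are highest and CRN manganese libraries lowest in most rows, and the contrast is strongest in the upper, shorter genes.

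The first question was how manganese cultures differed from control cultures in the strain without PPN1. There, 63 of the 77 genes fell and 0 rose, where 24.0% of all tested genes were lower and 24.7% higher. Genes of both subunits fell, 23 of 29 in the small and 36 of 42 in the large, with 4 of the 6 genes without a subunit. The median log2 fold change of the 77 was -2.09, against 0.09 over all genes, and single genes ran from -5.06 to 0.28. Of those above 0, none had an unadjusted p below 0.05 in edgeR (0 genes), and DESeq2 called 0 higher and 64 lower. In 73 genes both manganese libraries lay below both control libraries, which was so for 39.7% of all genes.

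MRPL37, MRPL39 and MRPS8 fell most. MRPL37 is a protein of the large subunit that has no bacterial relative. It had 1216 and 1086 CPM in control medium against 27.4 and 41.5 in manganese (-5.06 ± 0.26 SE, edgeR adjusted p = 1.30e-09). MRPL39, the smallest of the proteins and a member of the bacterial L33 family, had 652 and 543 CPM in control medium against 22.6 and 14.4 in manganese (-5.02 ± 0.26 SE, edgeR adjusted p = 1.30e-09). MRPS8, the small subunit's relative of bacterial S8, had 1553 and 1113 against 35.8 and 49.3 CPM (-4.97 ± 0.27 SE, edgeR adjusted p = 1.39e-09). In each of these genes both control libraries lay far above both manganese libraries.

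In the small subunit, MRP10, a small protein with paired cysteines, had 816 and 639 CPM in control medium against 30.1 and 37 in manganese (-4.43 ± 0.23 SE, edgeR adjusted p = 1.30e-09). MRP21, the relative of bacterial S21, had 569 and 478 against 25.1 and 40.9 (-3.98 ± 0.26 SE, edgeR adjusted p = 4.87e-09). MRP13, found in yeast but not in bacteria, fell less, from 180.1 and 134 to 43.6 and 40.3 (-1.91 ± 0.23 SE, edgeR adjusted p = 2.90e-06). These genes were called and their groups did not overlap. Smaller falls were called in MRPS28, the S15 relative (-1.91 ± 0.24 SE, edgeR adjusted p = 5.23e-06), and in RSM10, the S10 relative (-1.59 ± 0.19 SE, edgeR adjusted p = 3.58e-06). MRP1, whose sequence resembles that of manganese and iron superoxide dismutases (-1.58 ± 0.21 SE, edgeR adjusted p = 9.02e-06), MRPS5, the S5 relative (-1.47 ± 0.23 SE, edgeR adjusted p = 4.67e-05), and MRP51, whose product acts in the translation of mRNAs with particular leaders (-1.20 ± 0.19 SE, edgeR adjusted p = 6.32e-05) fell as well.

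In the large subunit, MRPL49, the L21 relative, had 1315 and 948 CPM in control medium against 38.3 and 41.8 in manganese (-4.82 ± 0.24 SE, edgeR adjusted p = 9.76e-10). MRPL32, whose maturation by the m-AAA protease of the inner membrane is a known step in ribosome assembly, had 585 and 359 against 17.3 and 24.2 (-4.50 ± 0.28 SE, edgeR adjusted p = 3.16e-09). IMG2, named for the integrity of the mitochondrial genome, had 435 and 401 against 21.8 and 28.4 (-4.05 ± 0.26 SE, edgeR adjusted p = 4.40e-09). In all of them the control libraries lay far above the manganese libraries. MRPL36, the L31 relative, had a log2 fold change of -2.92 ± 0.20 SE (edgeR adjusted p = 7.84e-09), and MRPL7, the L5 relative, of -1.91 ± 0.21 SE (edgeR adjusted p = 9.97e-07). MRPL16, which like its bacterial relative L16 lies near the peptidyl transferase centre, had a log2 fold change of -1.27 ± 0.23 SE (edgeR adjusted p = 0.000164), and RML2, the L2 relative, of -1.03 ± 0.22 SE (edgeR adjusted p = 0.000854). MNP1, the relative of the stalk protein L12 that recruits translation factors, had 641 and 680.5 against 26.3 and 42 CPM (-4.27 ± 0.30 SE, edgeR adjusted p = 8.94e-09).

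Of the 77 genes, 14 were called in no comparison. They were IMG1, MRP20, MRPL3, MRPL4, MRPL40 and YML6 of the large subunit, MRP4, MRPS35, RSM7, RSM22, RSM23 and RSM24 of the small subunit, and PPE1 and MRP8. MRP20, the L23 relative at the exit of the peptide tunnel, had 47 and 67.9 CPM in control CRN and 65.7 and 74.5 in manganese (0.28 ± 0.23 SE, edgeR adjusted p = 0.285). MRPL4, the L29 relative that also lies by the tunnel exit, had 34 and 33.1 against 47.5 and 23.6 (0.08 ± 0.38 SE, edgeR adjusted p = 0.868). In both genes the groups overlapped. IMG1, the L19 relative, had 71.2 and 62.3 against 61.1 and 46.1 (-0.32 ± 0.23 SE, edgeR adjusted p = 0.244) with a coding sequence of 510 bases, which puts it in the shortest quintile of all genes. RSM22, whose description also names a predicted methyltransferase, had 60 and 46 against 48.4 and 40.9 (-0.25 ± 0.26 SE, edgeR adjusted p = 0.416). RSM24 (-0.69 ± 0.31 SE, edgeR adjusted p = 0.0595) missed the threshold of the test, while MRP4, the S2 relative (-0.76 ± 0.27 SE, edgeR adjusted p = 0.0229), RSM23, a relative of human DAP3 (-0.62 ± 0.24 SE, edgeR adjusted p = 0.0327), and MRPL40, the L24 relative (-0.78 ± 0.23 SE, edgeR adjusted p = 0.00765) missed that of size.

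**Figure D3:**
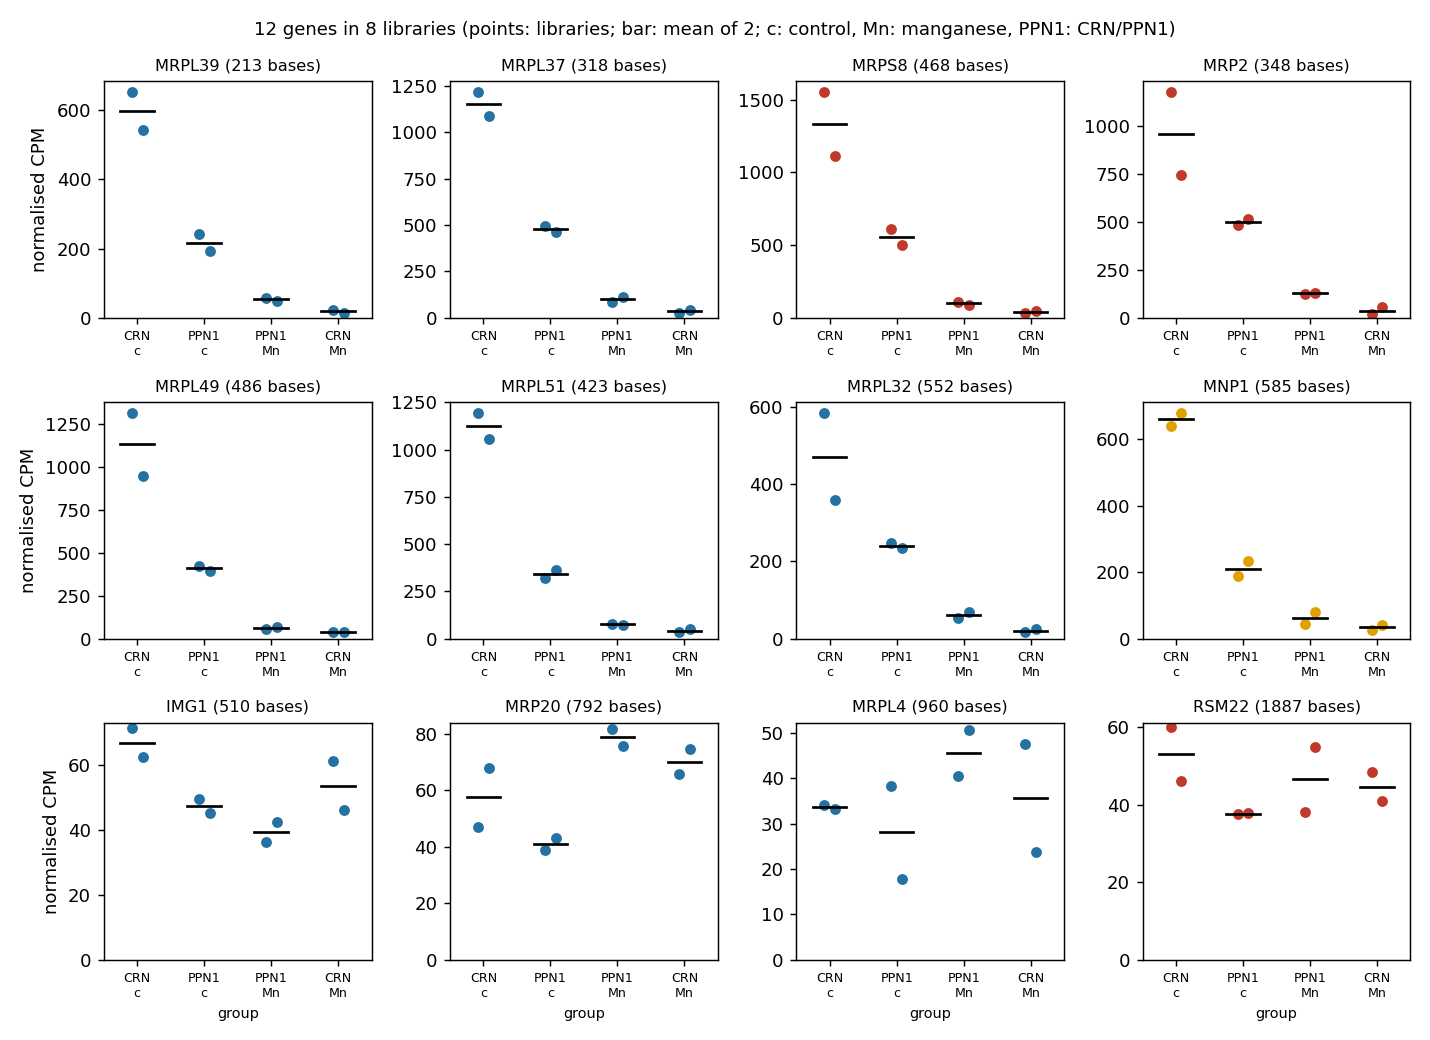
Normalised CPM of 12 of the genes in each of the 8 libraries (points) with the mean of the 2 libraries of a group (bar); vertical axes start at 0 and differ between panels. MRPL39 falls from 652 and 543 CPM in control CRN to 22.6 and 14.4 in manganese, while MRP20 stays between 38.7 and 81.8 in all libraries.

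The differences moved with coding length, in these genes and in all others. The correlation of log2 fold change with log2 coding length was 0.81 over the 77 genes and 0.51 over all tested genes, a description across genes that share libraries. Among the shortest quintile of all genes (up to 645 bases), the 37 mitoribosomal genes had a median of -4.05 with manganese in CRN, against -2.30 for all genes in that quintile. In the next (648 to 1029 bases) the 29 genes had -1.68 against -0.23, and in the middle quintile (1032 to 1470 bases) the 10 genes had -1.0 against 0.27. The cytosolic ribosomal protein genes had medians of -4.50 (103 genes), -2.32 (21 genes) and -2.05 (3 genes) in these quintiles. When the trend on length was taken out of each library, 54 of the 77 genes were lower and 1, IMG1 (1.69), was higher, with 18.8% of all genes lower. Of the 63 genes, 52 were called in that fit as well. The part that gene length plays in the counts was not tested.

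**Figure D4:**
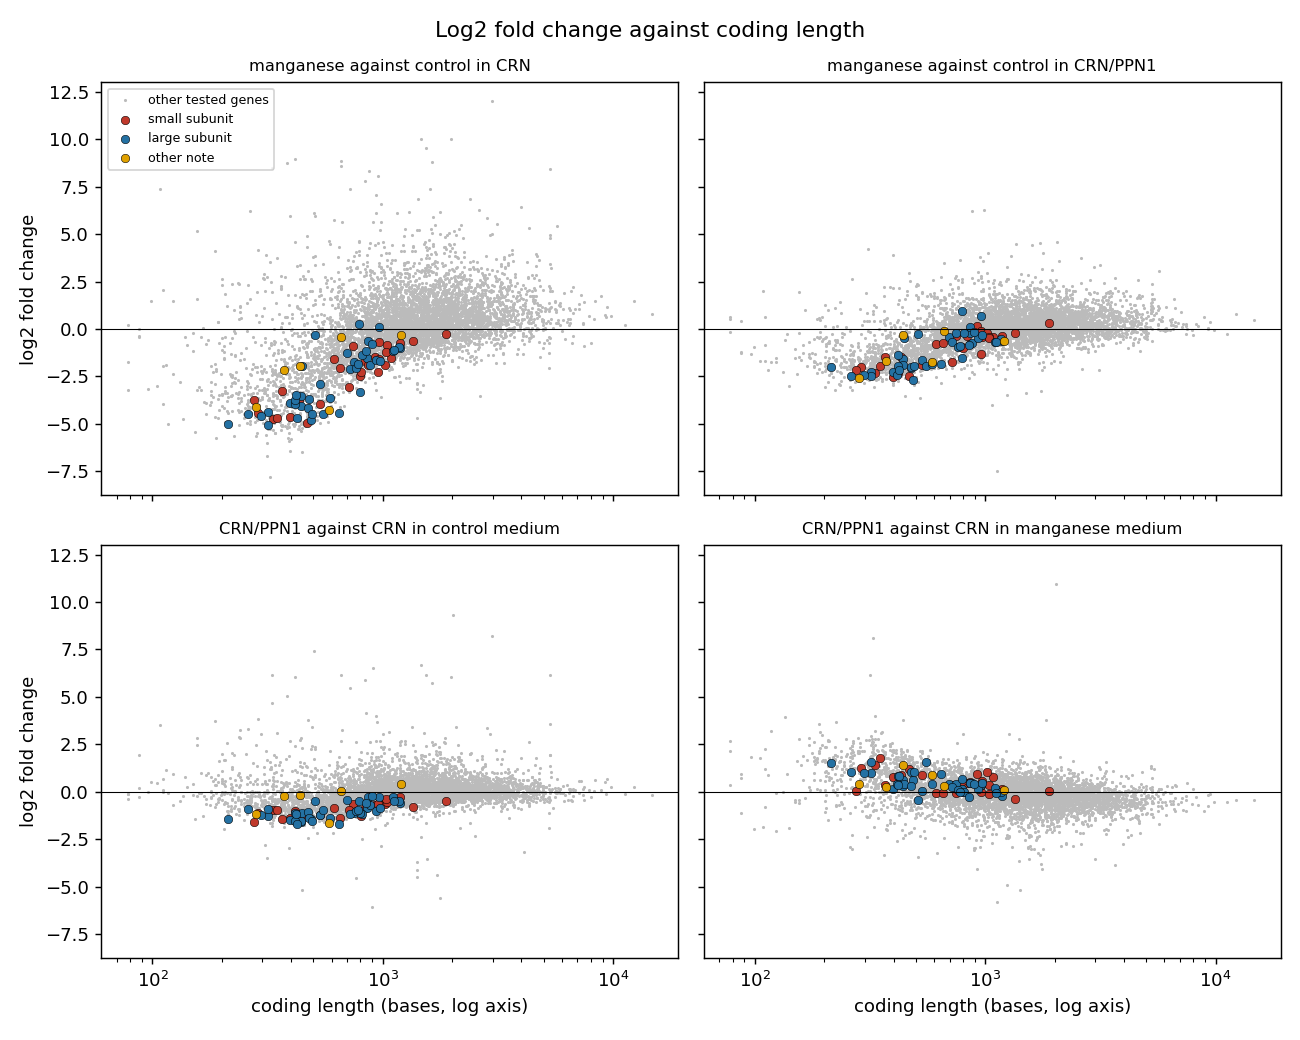
Log2 fold change against coding length in bases (log axis) in the 4 comparisons, with small subunit genes in red, large subunit genes in blue, genes without a subunit in yellow and other tested genes in grey. The coloured points follow the slope of the grey ones and lie below most of them in the 3 comparisons where their median is negative (-2.09, -0.93 and -0.97).

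In the strain that carries the PPN1 plasmid, manganese cultures were again lower than control cultures, in fewer genes and by less. Of the 77, 37 fell, 13 of the small subunit, 21 of the large and 3 without a subunit, where 15.1% of all genes were lower. None rose (0 genes, 10.1% of all genes), 1 of those above 0 had an unadjusted p below 0.05 in edgeR, and DESeq2 called 0 higher and 37 lower. The median log2 fold change was -0.93, against 0.01 over all genes. In 63 genes both manganese libraries lay below both control libraries, against 35.2% of all genes. The 37 genes are 37 of 37 called here and 37 of the 63 called in CRN, in libraries that the 2 comparisons do not share. Both comparisons come from the same fit. Both also moved with coding length, with correlations over the 77 genes of 0.81 in CRN and 0.78 in CRN/PPN1. The share of all genes called lower in both strains is not given here.

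MRPL49, RTC6 and MRP17 fell most. MRPL49 had 426 and 394 CPM in control medium against 58.5 and 66.4 in manganese (-2.71 ± 0.22 SE, edgeR adjusted p = 1.01e-06). RTC6, a short protein of the L36 family, had 222 and 206 against 52.7 and 19.1 (-2.57 ± 0.34 SE, edgeR adjusted p = 3.25e-05). MRP17, the relative of bacterial S6, had 453 and 377 against 82.1 and 63.1 (-2.51 ± 0.29 SE, edgeR adjusted p = 1.11e-05). The control libraries lay close together and well above both manganese libraries in all of them, although the manganese libraries of RTC6 differed from each other and its value was -3.47 without CRN/PPN1 manganese replicate 1. YMR31, now known as a subunit of the α-ketoglutarate dehydrogenase complex rather than a ribosomal protein, had 129 and 162 CPM in control medium against 20.1 and 70 in manganese (-1.69 ± 0.38 SE, edgeR adjusted p = 0.00238).

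MRP20 lay at the other end with 38.7 and 43 CPM in control medium against 81.8 and 75.9 in manganese (0.95 ± 0.23 SE, edgeR adjusted p = 0.00431). Its groups did not overlap, and it was the 1 gene past the adjusted p alone on the higher side, where 18.4% of all genes were; its log2 fold change stayed short of 1. It was called higher without CRN/PPN1 control replicate 2 (1.02) and without CRN/PPN1 manganese replicate 2 (1.01). MRPL4 had 38.3 and 17.8 against 40.4 and 50.6 (0.69 ± 0.38 SE, edgeR adjusted p = 0.164), with control libraries far apart, and was called higher without CRN/PPN1 control replicate 1 (1.35). RSM22 had 37.5 and 37.8 against 38.2 and 54.9 (0.30 ± 0.26 SE, edgeR adjusted p = 0.382).

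With the trend on length removed, 14 genes were lower (5.89% of all genes), all of them among the 37, and MRP20 was higher (1.10). The 14 included MRPL49 (-1.66), MRPS17, the S17 relative (-1.42), MRPS8 (-1.36) and PET123 (-1.34), a small subunit protein found through mutations in a translational activator. In the shortest quintile the mitoribosomal genes had a median of -1.98, against -1.23 for all genes of that length and -1.64 for the cytosolic ribosomal protein genes.

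The strains were then compared in control medium, where both grew for 12 h. The libraries are the control libraries of the comparisons above. The genes were lower in CRN/PPN1, with 36 called lower and 0 higher, where 4.45% of all genes were lower and 4.45% higher. No gene above 0 had an unadjusted p below 0.05 in edgeR (0 genes), and DESeq2 called 40 lower and 0 higher. By subunit, 10 of 29 in the small and 24 of 42 in the large were lower, with 2 of the 6 without a subunit. The median log2 fold change was -0.97, against -0.01 over all genes. In 74 of the 77 both CRN/PPN1 libraries lay below both CRN libraries, against 29.6% of all genes. Without CRN/PPN1 control replicate 2 the count of lower genes was 24, and without CRN control replicate 1 it was 29.

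MRPL51, MRPL6 and MNP1 were lowest relative to CRN. MRPL51, a large subunit protein with a relative in human mitochondria but none in bacteria, had 1195 and 1057 CPM in CRN and 322 and 362 in CRN/PPN1 (-1.72 ± 0.21 SE, edgeR adjusted p = 0.000102). MRPL6, the L6 relative, had 496 and 387 against 137 and 136 (-1.70 ± 0.19 SE, edgeR adjusted p = 4.40e-05). MNP1 had 641 and 680.5 against 188 and 233 (-1.65 ± 0.27 SE, edgeR adjusted p = 0.000834). The pairs of libraries were far apart in all of them, by more than the difference within a strain. IMG2 was lower as well, with 170.4 and 120.0 CPM in CRN/PPN1 (-1.52 ± 0.23 SE, edgeR adjusted p = 0.000573). At the other end PPE1, a methylesterase of a protein phosphatase, had 34 and 60.1 CPM in CRN and 52.6 and 72.2 in CRN/PPN1 (0.40 ± 0.35 SE, edgeR adjusted p = 0.512). MRP8 had 348 and 259 against 306 and 313 (0.03 ± 0.20 SE, edgeR adjusted p = 0.958), and its direction turned with DESeq2's scaling (-0.0054) and without CRN control replicate 2 (-0.17).

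Length entered here too, with a correlation of 0.59 over the 77 genes and 0.18 over all genes. The 37 short genes had a median of -1.22, against -0.52 for all genes of that length and -1.03 for the cytosolic ribosomal protein genes among them. With the trend removed, 10 of the 77 genes were lower, where 1.19% of all genes were. The 10 included MRPL6 (-1.30), RSM19, the S19 relative (-1.23), MRPL39 (-1.21) and MNP1 (-1.19). All 10 were among the 36.

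In manganese medium few of the genes differed between the strains. CRN/PPN1, harvested after 16 h, was higher than CRN, harvested after 40 h, in 12 genes and lower in 0, where 10.4% of all genes were higher and 7.37% lower. None of the genes below 0 had an unadjusted p below 0.05 in edgeR (0 genes), and DESeq2 called 12 higher and 0 lower. The 12 were 5 genes of the small subunit, 6 of the large and MMF1. The share called, 12 of 77, was near the background. The median log2 fold change was 0.41, against -0.01 over all genes, and in 41 genes both CRN/PPN1 libraries lay above both CRN libraries (31.7% of all genes). By the adjusted p alone 24 genes were higher, against 17.7% of all genes.

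MRP2, the S14 relative, had 18.9 and 55.8 CPM in CRN and 124 and 129.8 in CRN/PPN1 (1.76 ± 0.36 SE, edgeR adjusted p = 0.00179), with the CRN libraries far apart. Without CRN manganese replicate 2 the value was 2.77. MRPL32 had 17.3 and 24.2 against 54.3 and 68 (1.56 ± 0.26 SE, edgeR adjusted p = 0.000416). MRPL37 had 27.4 and 41.5 against 87.6 and 114 (1.54 ± 0.23 SE, edgeR adjusted p = 0.000188). In each the lower CRN/PPN1 library lay above the higher CRN library. RSM27 (1.42 ± 0.21 SE, edgeR adjusted p = 0.000132) and MRP13 (1.04 ± 0.22 SE, edgeR adjusted p = 0.00249) of the small subunit were also higher. MMF1, a matrix protein needed to keep the mitochondrial genome, had 170.0 and 158 CPM in CRN and 449.9 and 427 in CRN/PPN1 (1.42 ± 0.19 SE, edgeR adjusted p = 6.47e-05). The lowest values were those of IMG1 (-0.45 ± 0.23 SE, edgeR adjusted p = 0.16), RSM23 (-0.40 ± 0.24 SE, edgeR adjusted p = 0.223) and MRPL17, the relative of a human mitochondrial protein (-0.27 ± 0.22 SE, edgeR adjusted p = 0.382), none of which passed the test.

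With the trend on length removed, MRPL32 (1.17) and MRP13 (1.03) were higher and RSM19 (-1.19) was lower, and 5.45% of all genes were higher. The median of the 77 was then 0.10, with 45 genes above 0 and 32 below. MRP2 (0.87) and MRPL37 (0.52) were not called in that fit.

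The interaction of strain and medium asks whether the difference between media was the same in both strains. It was more negative in CRN for 53 genes and less negative for 0, where 15.0% of all genes were called in the same direction and 11.6% in the other. DESeq2 called 54 and 0, and no gene below 0 had an unadjusted p below 0.05 in edgeR (0 genes). The 53 were 20 genes of the small subunit, 30 of the large and 3 without a subunit, and the median of the 77 was 1.42 on the log2 scale, against -0.02 over all genes. MRPL39 differed most (3.0 ± 0.33 SE, edgeR adjusted p = 3.53e-05), with log2 fold changes with manganese of -5.02 in CRN and -2.02 in CRN/PPN1. MRPL37 (2.81 ± 0.32 SE, edgeR adjusted p = 3.72e-05) and MRP2 (2.70 ± 0.49 SE, edgeR adjusted p = 0.000801) followed, and MRP2 stood at 3.69 without CRN manganese replicate 2. The lowest value was that of PPE1 (-0.31 ± 0.49 SE, edgeR adjusted p = 0.663), which turned without CRN control replicate 1 (0.035) and without CRN/PPN1 manganese replicate 1 (0.14). With the trend on length removed 26 genes were called, against 10.4% of all genes. The manganese cultures of the strains also differ in growth time, 40 h and 16 h, which cannot be told apart from the strain here.

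The counts depend on the scaling. Scaled to the total count of each library, without TMM, all genes moved, with a median log2 fold change over all genes of 1.57 for manganese in CRN, 0.68 for manganese in CRN/PPN1, 0.50 between strains in control medium, -0.32 between strains in manganese and -0.84 for the interaction. All genes called were then 3675 higher and 609 lower in CRN, against 1426 and 1389 with TMM, and 1869 higher and 404 lower in CRN/PPN1, against 582 and 870. Of the 77 genes, 34 were lower with manganese in CRN (10.5% of all genes) and 6 higher (MRP20, MRPL4, RSM22, IMG1, PPE1 and MRP8), and their median was -0.62. In CRN/PPN1 29 were lower (6.99%) and 2 higher (MRP20 and MRPL4). Between the strains 8 were lower in control medium (0.640%) and 6 higher in manganese (6.80%), and the interaction called 22 (6.33%).

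Levels per kb of coding length show how the genes varied among themselves. Over the 71 genes with a stated subunit, the summed level was 28460 and 23992 CPM in control CRN, 12167 and 11675 in control CRN/PPN1, 4107 and 4313 in manganese-grown CRN/PPN1, and 2887 and 3120 in manganese-grown CRN. Most ribosomal proteins are needed in equal numbers in a ribosome, while their RNA levels per kb were not equal. The highest level per kb was 127 and 145 times the lowest in control CRN, 95.7 and 110 times in control CRN/PPN1, 17.6 and 14.6 times in manganese-grown CRN/PPN1, and 6.23 and 9.01 times in manganese-grown CRN. The SD of the log2 level per kb was 2.03 and 1.87 in control CRN and 0.64 and 0.74 in manganese-grown CRN. The spread between genes was thus narrowest where the summed level was lowest. This narrowing was not particular to these genes. Over the 5537 tested genes with a coding length, the SD was 2.72 and 2.68 in control CRN and 1.64 and 1.66 in manganese-grown CRN. Whether the spread narrowed more in the 71 genes than in others was not tested. The correlation of the log2 level per kb with log2 coding length lay between -0.91 and -0.88 in the 4 control libraries and between -0.85 and -0.63 in the 4 manganese libraries. Over all tested genes it lay between -0.62 and -0.37.

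**Figure D5:**
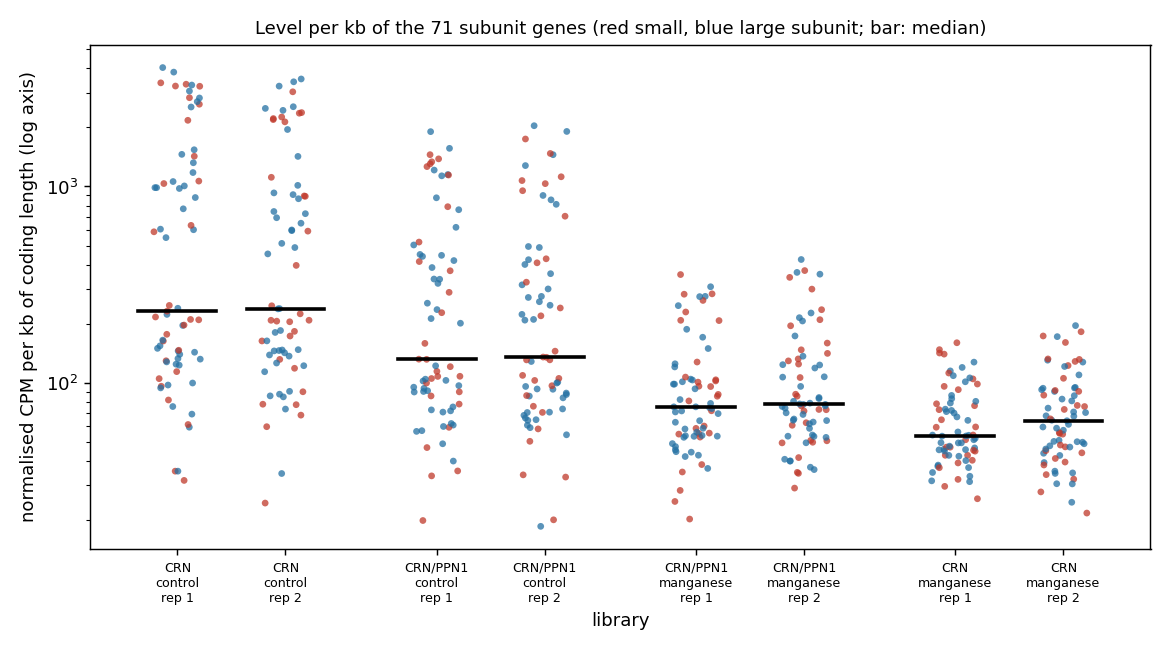
Normalised CPM per kb of coding length (log axis) of the 71 genes with a stated subunit in each library, small subunit in red and large in blue, with the median as a bar. The points spread over 127-fold and 145-fold in the CRN control libraries and over 6.23-fold and 9.01-fold in the CRN manganese libraries.

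MRPS8, MRP2 and RSM27 had the highest levels per kb in the small subunit as a mean over all libraries, to which control CRN adds most, and YDR115W, a relative of bacterial L34, MRPL37 and MRPL33, a relative of bacterial L30, in the large. In manganese-grown CRN, RSM19 (167), RSM18 (162) and MRPS18 (139.9 CPM per kb), named after their values were seen, were the highest of the small subunit, with MRP2 at 107 and MRPS8 at 90.9, while MRPL33 was the highest of the large subunit in every group. RSM22, RSM24 and RSM23 had the lowest means over all libraries in the small subunit, and MRPL4, MRPL35 and MRPL40 in the large. RSM22 was the lowest of all in every library but CRN/PPN1 control replicate 2, where MRPL4 had a level per kb of 18.6. The level per kb of RSM22 lay between 19.9 and 31.8 in the other libraries, a narrow range beside that of MRPL33, which had 4034 in CRN control replicate 1 and 196 in CRN manganese replicate 2. The small subunit's share of the summed CPM lay between 42.3% and 47.3% in all libraries. In 56 of the 77 genes (72.7%, against 19.9% of all tested genes) the group means fell in the order CRN control, CRN/PPN1 control, CRN/PPN1 manganese, CRN manganese. That order is also the order of the summed levels of these genes, so their larger share is partly built in and is only a description. In 36 genes (46.8%, against 9.26%) the libraries of neighbouring groups in that order did not overlap either. Control CRN had the highest mean in 73 genes (94.8%, against 32.0%) and manganese-grown CRN the lowest in 60 (77.9%, against 35.3%).

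Genes of mitochondrial gene expression outside the 77 were compared from 5 lists. Of 60 tested genes, whose median coding length was 1648.5 bases, 14 were lower (23.3%) and 4 higher (6.67%) with manganese in CRN, with a median of -0.35. The share that was lower was near that of all genes (24.0%). In CRN/PPN1 8 were lower (13.3%, against 15.1%). Between the strains 5 were lower in control medium (8.33%, against 4.45%), and 5 were lower (8.33%, against 7.37%) and 1 higher in manganese. The interaction called 4 on the higher side (6.67%, against 15.0%) and 2 on the lower. The genes named below are a description. The Puf3 letters were found in 16 of 17 genes listed as mitochondrial aminoacyl-tRNA synthetases (94.1%) and in 8 of 11 translation factors (72.7%). The list of synthetases also holds HER2, PET112 and GTF1, which are subunits of a tRNA amidotransferase. By list, with manganese in CRN, 3 of 10 tested translation factors were higher (MEF2 by 1.62, AEP3 by 1.47 and PTH1 by 2.58 on the log2 scale) and 2 lower (RRF1, and RMD9 at -1.03). PTH1 is hardly expressed, with 3.71 and 0.00 CPM in control CRN against 13.2 and 8.57. MEF2 was low as well, with 8.67 and 8.98 CPM in control CRN against 23.9 and 30.5 in manganese. Of 11 assembly and rRNA modification factors 2 were lower (MAM33 and MSS116), with a median of -0.04. Of 15 activators of single mitochondrial mRNAs 4 were lower (CBP6, PET54, CBP3 at -1.53 and CBS2 at -1.28) and ATP22 was higher, with a median of -0.52. Of 7 genes of mitochondrial transcription and RNA turnover MTF1 (-1.08) and SUV3 (-1.16) were lower. In the list of synthetases, MSE1, MSW1, ISM1 and DIA4 were lower with manganese in CRN (4 of 17). Their log2 fold changes lay between -1.39 and -1.19, and the median of all 17 listed genes was -0.62.

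In CRN/PPN1 the lower genes were RRF1 (-1.12), ISM1 (-1.15), MAM33 (-1.36), PET54 (-1.25), CBS1 (-1.22), CBS2 (-1.47), MTF1 (-1.15) and CBP6. Between the strains in control medium they were RRF1 (-1.43), MSR1 (-1.13), MRH4 (-1.16), MAM33 (-1.25) and PET111 (-1.67). In manganese they were AEP3 (-1.24), GUF1 (-1.43), MTG2 (-1.17), PET309 (-1.07) and ATP22 (-1.52), while CBP6 (1.17) was higher. The interaction called RRF1 (2.01), CBP6 (2.08), MAM33 (1.05) and SUV3 (1.10) on the side of the mitoribosomal genes and AEP3 (-1.73) and ATP22 (-2.08) on the other.

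The genes of the lists that fell most with manganese in CRN were short, but not all short ones fell. PTH1 (573 coding bases, hardly expressed) was higher and GTF1 (552) was not called. CBP6, which with Cbp3 binds the ribosome's tunnel exit and the cytochrome b mRNA, has 489 coding bases and had 773 and 592 CPM in control CRN and 18.3 and 23.6 in manganese (-5.02 ± 0.24 SE, edgeR adjusted p = 8.81e-10). In CRN/PPN1 it had 357 and 370.4 against 48.8 and 45.7 (-2.94 ± 0.22 SE, edgeR adjusted p = 8.27e-07). RRF1, the ribosome recycling factor, had 154 and 142 CPM in control CRN and 10.5 and 23 in manganese (-3.13 ± 0.30 SE, edgeR adjusted p = 2.36e-07). MAM33, a matrix protein linked to mitochondrial translation, had 239 and 241 against 46.1 and 44.2 (-2.41 ± 0.19 SE, edgeR adjusted p = 3.50e-08). PET54, an activator of COX3 translation, had 137 and 131 against 32.9 and 28.3 (-2.14 ± 0.30 SE, edgeR adjusted p = 1.39e-05). Longer genes of the lists lay on both sides. MSS116, an RNA helicase with 1995 coding bases, had 288 and 370.0 against 89.5 and 118 (-1.67 ± 0.21 SE, edgeR adjusted p = 4.39e-06), and ATP22, an activator of ATP6 translation, rose from 41.5 and 37.1 to 179 and 188 (2.22 ± 0.22 SE, edgeR adjusted p = 3.0e-07).

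A sixth list held 10 regulators. Among them, none of which holds the Puf3 letters, PUF3 itself had 24.1 and 36.5 CPM in control CRN, 26.3 and 24.5 in manganese-grown CRN, 34.7 and 37.8 in control CRN/PPN1 and 35.6 and 20.7 in manganese-grown CRN/PPN1, and was called in no comparison. HAP4, the activating subunit of the complex that drives respiratory genes, had 64.4 and 46.6 CPM in control CRN and 242 and 236 in manganese (2.11 ± 0.23 SE, edgeR adjusted p = 1.36e-06). In CRN/PPN1 it had 139 and 144 against 377 and 256 (1.16 ± 0.22 SE, edgeR adjusted p = 0.000616), and between the strains in control medium it was higher in CRN/PPN1 (1.35 ± 0.24 SE, edgeR adjusted p = 0.00135). Its mean was lowest in control CRN and highest in manganese-grown CRN/PPN1. In all, 5 of the 10 were higher with manganese in CRN and 1 lower, where 24.7% of all tested genes were higher and 24.0% lower. HAP1 (1.45), HAP5 (1.14) and STB3 (1.73) were among the 5 that were higher, and their difference between the strains was not called. HAP5 had low levels, 9.90 and 5.61 CPM in control CRN against 17.1 and 17.0 in manganese. SFP1, a regulator of genes of the cytosolic ribosome, was higher with manganese in CRN (2.24 ± 0.32 SE, edgeR adjusted p = 1.75e-05) and in CRN/PPN1 (1.78 ± 0.30 SE, edgeR adjusted p = 0.000278). HAP3, a DNA-binding subunit of the same complex as Hap4, was lower with manganese in CRN (-1.46 ± 0.31 SE, edgeR adjusted p = 0.000777) and in CRN/PPN1 (-1.52 ± 0.34 SE, edgeR adjusted p = 0.0026), and lower in CRN/PPN1 than in CRN in manganese (-1.04).

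The Puf3 letters and the differences were set side by side. Among genes outside the 77, the 748 with the letters had a median log2 fold change of -0.23 with manganese in CRN and the 4712 without had 0.22, at median coding lengths of 1254 and 1257 bases. In CRN/PPN1 the medians were -0.15 and 0.09, and between strains in control medium -0.14 and 0.01. In manganese they were 0.03 and -0.04. Of the 77, the 59 genes with 1 match had a median of -2.28 with manganese in CRN, the 13 with more had -1.98 and the 5 with none had -0.41. Those 5 are YMR31, PPE1, MMF1 and MRP8, which have no stated subunit, and RSM22, the longest of the 77. The letters cannot be told apart from subunit and length in that contrast. In the shortest quintile the median was -2.30 over all genes, -2.63 over other genes with the letters and -4.05 over the mitoribosomal genes, and in the next it was -0.23, -0.52 and -1.68. The cytosolic ribosomal protein genes had still lower medians in these quintiles, -4.50 (103 genes) and -2.32 (21 genes).

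The parts of the mitochondrial ribosome that are encoded in the mitochondrion gave hardly any counts. VAR1 had 1 count in each CRN control library and 0 in the other 6. The 15S rRNA had 0 in all libraries, and the 21S rRNA had 2 counts in CRN manganese replicate 1 and 0 elsewhere. No difference between groups was detectable for them at such counts. The counting left out reads with several possible places, and the study's methods name a TruSeq RNA Sample Prep kit for the libraries. Why the counts were so low was not tested. The 127 cytosolic ribosomal protein genes were lower in 127 cases with manganese in CRN, in 86 (median -1.48) with manganese in CRN/PPN1 and in 62 (median -0.96) between strains in control medium, and 115 were higher in manganese-grown CRN/PPN1 (median 1.72). Between strains in control medium their median was thus close to that of the 77, and whether the families differ was not tested.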

How the data were processed

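RNA from 8 cultures was sequenced, 2 per combination of strain and medium. The submitters' processing notes name Trimmomatic 0.36, STAR 2.5.3a and the R64 (sacCer3) genome. The authors deposited unnormalised counts per gene for each library, on either strand and on each strand, without reads that mapped to several places. The table of all libraries holds counts and gene descriptions, and 57008 of 57008 of its values equalled the opposite-strand counts, 90.7% to 93.3% of those on both strands. These were used.

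The tools were edgeR 4.0.16, DESeq2 1.42.0 and limma 3.58.1, run in R 4.3.3. The tests covered 5778 genes that reached 2 CPM in 4 or more libraries, after TMM scaling, in a model with 4 groups fitted by edgeR's quasi-likelihood method (legacy form), with two-sided F tests and Benjamini-Hochberg adjustment over all tested genes. The common biological coefficient of variation was 0.180. Calls needed an adjusted p no higher than 0.05 and a log2 fold change of 1 or more in size. Standard errors were derived from the F statistic. Precision is limited by 2 libraries per group and 2309776 to 3579469 gene counts each. Coding lengths and sequences came from NCBI RefSeq (R64), and the 77 genes were matched by identifier. The trend on length was removed per library with a lowess curve (span 0.3) over 5537 tested genes.

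The genes, lists and comparisons were chosen with earlier results of these data known. Genes are named by a rule. These are the 3 highest and 3 lowest log2 fold changes in each comparison, the 3 highest and lowest levels per kb in each subunit, genes called in a direction with 5 or fewer calls, genes with a known role, and list genes that were called or had the largest changes. The steps were tested on simulated data. The alternatives were DESeq2, other scalings and filters, edgeR's later form, the adjusted p alone, counts on either strand, a replicate block, the length trend and each library left out. The search on the other strand and the fits over the 71 genes with a subunit were added after the data were seen.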

Additional observations from a re-analysis of the deposited data

Results flagged for a closer look

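The difference between media was not the same in the 2 strains for 53 of the 77 genes, by the interaction term of edgeR's quasi-likelihood fit with Benjamini-Hochberg adjustment. Over all tested genes 15.0% were called in that direction, as were 126 of the 127 cytosolic ribosomal protein genes (median 2.82). With the length trend removed 26 of the 77 were called, and with scaling to library totals 22. Among the genes named for the interaction, MRPL39 differed by 3.0, MRPL37 by 2.81 and MRP2 by 2.70 on the log2 scale, each with a larger fall in CRN. The value of MRP2 lay between 2.12 and 3.69 with 1 library left out. Growth times of the manganese cultures, 40 h in CRN and 16 h in CRN/PPN1, cannot be told apart from the strain. No group has the 4 libraries needed to look for a sample far from the others.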

How the results depend on the processing

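Over the counts of called genes and the medians relative to all genes, 231 values stayed within the margin of the main value and 29 moved. Of the values of single named genes, 400 stayed on their side of the threshold, 8 came to pass it, 2 no longer passed it and 6 turned. With the length trend removed, the genes called were 1 higher and 54 lower for manganese in CRN, 1 and 14 in CRN/PPN1, 0 and 10 between strains in control medium, 2 and 1 in manganese, and 26 and 0 for the interaction. The medians relative to all genes were then -1.33, -0.66, -0.66, 0.11 and 0.77. Scaled to library totals, the counts were 6 and 34, 2 and 29, 0 and 8, 6 and 0, and 22 and 0. By the adjusted p alone 1 gene was higher with manganese in CRN/PPN1 and 24 between strains in manganese. With counts on either strand the median in CRN/PPN1 was -0.84.

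Leaving out each library in turn, the genes lower with manganese in CRN numbered 61 to 65 and the relative median lay between -2.40 and -2.18. In CRN/PPN1 0 to 1 were higher and 37 to 44 lower, with a median of -1.16 to -0.88. Between strains 24 to 37 were lower in control medium (-1.04 to -0.91) and 11 to 16 higher in manganese (0.40 to 0.56), and the interaction called 47 to 53 (1.30 to 1.49). MRPL4 with manganese in CRN lay between -0.49 (without CRN manganese replicate 1) and 0.52. MRP8 between strains in control medium turned to -0.0054 with DESeq2, -0.0055 with DESeq2's size factors in edgeR and lay between -0.17 (without CRN control replicate 2) and 0.25. PPE1 in the interaction turned to 0.035 without CRN control replicate 1 and lay between -0.99 and 0.14 (without CRN/PPN1 manganese replicate 1). MRP2 between strains in manganese lay between 1.20 and 2.77, and RTC6 in CRN/PPN1 between -3.47 and -2.01. The causes were not tested.

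The labels share replicate numbers between groups, and the study describes simultaneous cultivations without saying that a number marks one of them. Deviations of same-numbered libraries correlated by 0.036 to 0.22 over the 6 pairs of groups, and 1 pair stayed under 0.1, so the numbers were not taken as pairs. With a replicate block the counts were 63 and 37 lower with manganese, 35 lower and 12 higher between strains, and 53 for the interaction.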

Other observations

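Counts on the strand of the gene itself, which the comparisons do not use, were few in the 74 genes that overlap no gene on the other strand. Of the counts on both strands they made 0.61% and 0.55% in control CRN, 1.79% and 1.96% in control CRN/PPN1, 2.19% and 1.74% in manganese-grown CRN/PPN1, and 2.90% and 2.66% in manganese-grown CRN. Over all genes the shares ran from 6.67% to 9.32%. In counts, the 74 genes had 286 and 234 in control CRN, 497 and 563 in manganese-grown CRN, 574 and 556 in control CRN/PPN1 and 329 and 269 in manganese-grown CRN/PPN1. These counts were not scaled to library size or by TMM. The TMM factors were 0.508 and 0.651 in control CRN and 1.61 and 1.63 in manganese-grown CRN. No direction with manganese is therefore read from the unscaled counts. Whether they come from antisense RNA or from the library preparation was not tested.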
